A study of Mus musculus with 4 samples.

Results

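The 39 genes described here encode voltage-gated sodium channels, voltage-gated calcium channels with their auxiliary subunits, the intracellular calcium release channels and the calcium pumps. They were taken by symbol from the 15632 genes of the deposited tables, as every Cacn, Scn, Ryr, Itpr and Atp2a, Atp2b or Atp2c gene except the T-type pores Cacna1g, Cacna1h and Cacna1i. Of 45 matching symbols, 39 had a count in each of the 4 libraries. The other 6 (Cacna1s, Cacnb1, Cacng5, Scn7a, Scn11a and Atp2c2) are not described by group. The rule used symbols and the presence of counts, not a measured difference, but it was set with earlier results of these data known.

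The deep cerebellar nuclei, through which the cerebellum sends its output, were dissected from slices of C57BL/6J mice, and RNA of single nuclei was sequenced with 10x libraries. By its title, the study is about a glutamatergic population there and its part in satiation. The Ucn3-Cre line (Tg[Ucn3-cre]KF31Gsat/Mmucd) gave replicate 1, a female of 3 months prepared on an iodixanol gradient, and replicate 2, a male of 3 months prepared on a sucrose cushion. The vGluT2-Cre line (Tg(Slc17a6-icre)1Oki) gave replicate 1, a male of 2 months, and replicate 2, a female of 2.5 months, both on a sucrose cushion. All 4 libraries carry Ai32, a reporter that makes channelrhodopsin fused to EYFP where Cre is active, and no library without Cre was used here. Cre marks Ucn3-expressing cells in one line and Slc17a6-expressing cells in the other, but the labels record no sorting of nuclei, so each library holds all cell types. Line goes with age, and nothing in the labels says how many animals made a library.

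Voltage-gated sodium channels consist of a large pore-forming alpha subunit, which starts and carries the action potential, and small beta subunits. High-voltage-activated calcium channels join a pore (Cacna1) with an alpha2delta (Cacna2d) and a beta (Cacnb) subunit, and admit calcium for transmitter release, firing control and gene regulation. Ryanodine receptors (Ryr) and inositol trisphosphate receptors (Itpr) release calcium from the endoplasmic reticulum, SERCA pumps (Atp2a) refill it, plasma membrane pumps (Atp2b) expel calcium and secretory pathway pumps (Atp2c) load the Golgi. Neurons of the cerebellar nuclei fire spontaneously at high rates and are known for persistent and resurgent sodium current.

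The 5 sodium channel alpha genes among the members are close copies, which bears on how their counts can be read. Over whole GENCODE transcripts (GRCm38, mm10), Scn1a, Scn2a, Scn3a and Scn9a, which are neighbours on chromosome 2, shared 139 to 529 windows of 50 identical bases per pair, whereas Scn8a shared 1 with Scn2a and 6 with Scn3a. Reads from such stretches cannot be assigned to 1 of the copies, so the counts of Scn1a, Scn2a, Scn3a and Scn9a are uncertain to that extent. Several members also overlap a gene on the other strand (Ryr3 and Aven, Cacna1c and Dcp1b, Cacna1d with Chdh and Dcp1a, Cacna2d3 and Lrtm1), and use of strand in counting is not stated in the sources used here.

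After removal of likely doublets, 20547 of 21494 deposited nuclei were clustered without the members, so that the members took no part in defining the groups. Library totals ran from 9096357 to 19125488 corrected counts, with a median of 1730 to 3206 counts per nucleus, and pairs of libraries shared 3 to 8 barcodes. Levels are in CPM, the count of a gene over the nuclei of a group in a library, divided by that sum's total count and brought to the usual per-million scale, and the n of each mean ± SD is 4 libraries unless stated. Values in 4 libraries are given in the order Ucn3-Cre 1, Ucn3-Cre 2, vGluT2-Cre 1, vGluT2-Cre 2. There were 3 neuron groups with names by their markers: glutamatergic neurons (544 nuclei), inhibitory neurons (cluster 9, 661) and molecular layer interneurons (245). A further neuronal cluster of 432 nuclei, cluster 17, led by Klhl1 and Chrm2, scored highest for inhibitory markers but stayed unnamed because the interneuron marker Nxph1 was among its leading genes. Summed over the 7 inhibitory markers (Gad1, Gad2 and Slc32a1 among them), cluster 17 had 1610 to 1957 CPM and cluster 9 had 1021 to 1337, and the 8 interneuron markers summed to 3238 to 3898 CPM in cluster 17 and 1048 to 1278 in cluster 9. Inhibitory neurons below means cluster 9, and cluster 17 is set beside it. Clusters 4 and 5, led by Klk6 and Piezo2, resembled oligodendrocytes but also stayed unnamed. Levels are compared between groups for 1 gene and not between genes.

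Across 11 groups with at least 20 nuclei in every library, 27 of the 39 members had their highest mean in a neuron group and 12 in a glial or vascular group. Of all 11446 genes with a count in each library, the same rule as for the members, 28.7% had their highest mean in a neuron group. In 15 of the 39, the libraries of the highest group lay above those of all other groups, against 28.8% of the 11446 genes. In 9 of the 39 this highest group was also a neuron group, against 476 of the 11446 genes. Inhibitory neurons led for 10 members, cluster 17 for 7, and glutamatergic neurons, molecular layer interneurons and mural cells for 5 each. Oligodendrocyte precursors led for 3, and astrocytes, oligodendrocytes, microglia and endothelial cells for 1 each. The members with separate highest levels outside neurons were Cacna1c, Itpr1 and Atp2a3 in mural cells, Cacng4 in precursors, Cacna2d4 in oligodendrocytes and Itpr3 in endothelial cells. Ryr1, the skeletal muscle type of ryanodine receptor, stayed at or under 6.17 CPM in every library of each of these groups.

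**Figure D1:**
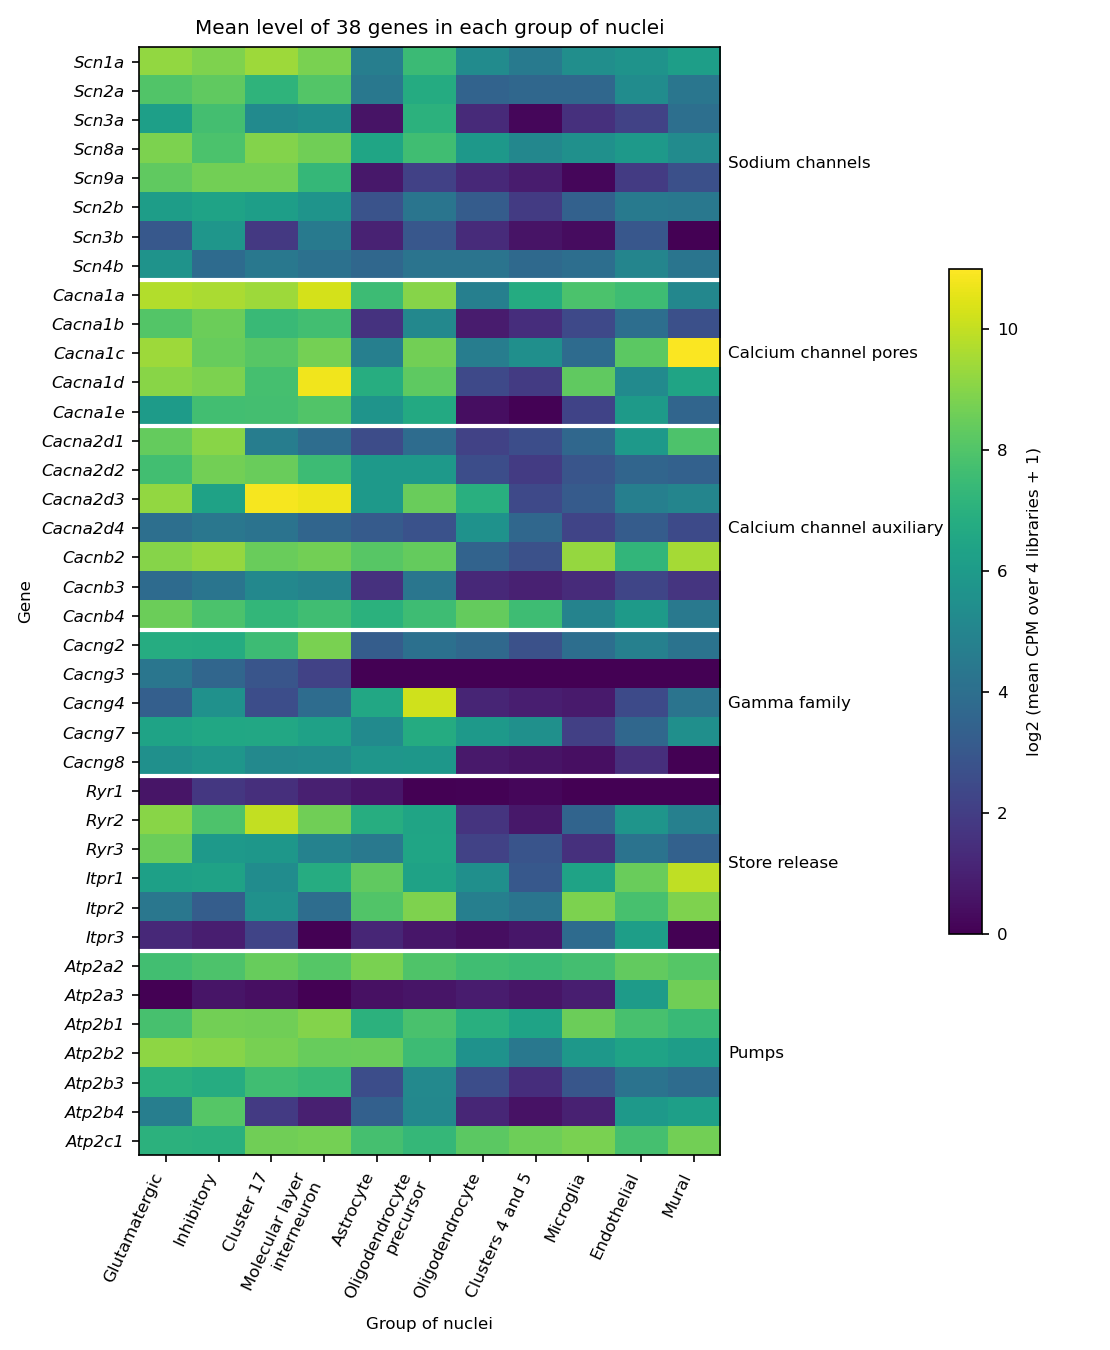
Mean level of 38 of the genes (rows, by family) in 11 groups of nuclei (columns), as log2 of the mean CPM over 4 libraries plus 1. Most rows are brightest in the neuron columns on the left; Cacna1c and Atp2a3 are brightest in mural cells, Cacng4 in oligodendrocyte precursors and Itpr3 in endothelial cells.

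The first comparison asked which members separate glutamatergic from inhibitory neurons. The glutamatergic class included sub-clusters 2, 6 and 7, which held markers of other cells and are described below. In the fit without them, all 24 members compared among those given by library kept their call. The values below include these sub-clusters. Of 36 members tested between glutamatergic and inhibitory neurons, 14 were higher and 13 lower in glutamatergic neurons, against a background of 37.4% of all 10401 genes called, 18.8% higher and 18.6% lower. The median log2 fold change of the members was -0.11, against -0.01 for all genes, and the median size of the change was 0.55 against 0.30. Scn8a, Scn4b, Cacna1c, Cacna2d3, Ryr2 and Ryr3 were among those higher, and Scn3a, Scn3b, Cacna1e, Cacna2d1 and Atp2b4 among those lower. Ryr1, Itpr3 and Atp2a3 did not pass the filter on low counts. The classes were drawn from the same nuclei, so p-values between classes are too small, although the members were kept out of the clustering. Median depth per nucleus also differed, at 6651 to 15405 counts in glutamatergic and 3794 to 7768 in inhibitory neurons, and its part in the results was not tested.

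Among the sodium channel pores, Scn8a (Nav1.6), the pore most tied to resurgent current, had 509.6, 416, 462 and 447 CPM in glutamatergic and 234, 224, 231 and 258 CPM in inhibitory neurons. The groups did not overlap, and the log2 fold change was 0.98 ± 0.08 (SE, adjusted p = 6.60e-12). Scn1a (Nav1.1) had 602, 584, 649 and 561 CPM against 437, 440.5, 516 and 467, again without overlap, with a log2 fold change of 0.40 ± 0.07 (SE, adjusted p = 3.10e-05). Scn3a (Nav1.3), known as a pore of embryonic neurons, went the other way, with 65.4, 55.5, 96.9 and 70.2 CPM in glutamatergic and 198, 197, 249 and 199 CPM in inhibitory neurons. Its log2 fold change was -1.50 ± 0.10 (SE, adjusted p = 1.03e-13), and the inhibitory value of vGluT2-Cre replicate 1 stood apart from the other 3. Scn2a (Nav1.2) had 278, 219, 299.9 and 239 CPM against 284, 303, 378 and 312, and Scn9a (Nav1.7), best known from pain neurons, had 388, 388, 218 and 293 CPM against 389, 476, 392 and 374. Both were lower in glutamatergic neurons, at -0.29 ± 0.08 (SE, adjusted p = 0.00554) and -0.36 ± 0.09 (SE, adjusted p = 0.00292), but their libraries overlapped. Both calls were lost in the fit without the library block, that for Scn2a without vGluT2-Cre replicate 2, and that for Scn9a without vGluT2-Cre replicate 1 and in DESeq2.

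Of the beta subunits, Scn4b, whose cytoplasmic tail is a candidate blocker behind resurgent current, had 30.9, 51.6, 51.9 and 63.1 CPM in glutamatergic and 10.6, 22.9, 4.31 and 15.9 CPM in inhibitory neurons. Every glutamatergic library was above every inhibitory one, with a log2 fold change of 2.08 ± 0.23 (SE, adjusted p = 8.76e-09). Scn3b had 7.01, 5.38, 7.55 and 8.83 CPM against 57.6, 46.1, 48.9 and 63.6, a log2 fold change of -2.79 ± 0.21 (SE, adjusted p = 1.19e-12), without overlap. Scn2b, at 67.9 ± 10.2 against 81.7 ± 11.3 CPM, did not pass (adjusted p = 0.109).

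Of the calcium channel pores, Cacna1c (Cav1.2, an L-type pore) had 714, 646, 585 and 753 CPM in glutamatergic and 391, 356, 293 and 346 CPM in inhibitory neurons, a log2 fold change of 1.02 ± 0.07 (SE, adjusted p = 5.99e-13). Cacna1e (Cav2.3, the R-type pore) had 75.6, 40.3, 69.3 and 71.0 CPM against 209, 175, 225 and 196, a log2 fold change of -1.64 ± 0.11 (SE, adjusted p = 8.22e-14). Neither overlapped between the groups. Cacna1b (Cav2.2, N-type) had 281, 265, 265 and 253 CPM against 369.8, 371, 402 and 340.5 and was lower by -0.45 ± 0.08 (SE, adjusted p = 2.31e-05), also without overlap. Cacna1a (Cav2.1, P/Q-type) had 982, 872, 648 and 898 CPM against 897, 792, 629.6 and 765, and Cacna1d (Cav1.3, L-type) 501, 511, 523 and 547 CPM against 414, 413, 473 and 541. Their log2 fold changes were 0.18 ± 0.07 (SE, adjusted p = 0.0338) and 0.22 ± 0.07 (SE, adjusted p = 0.0197); the libraries of each overlapped between groups, and both calls were lost without the library block. The call for Cacna1a was also lost without Ucn3-Cre replicate 1, Ucn3-Cre replicate 2 or vGluT2-Cre replicate 2, and that for Cacna1d without either Ucn3-Cre library.

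The alpha2delta subunits, which bring pores to the membrane and bind gabapentin in the case of Cacna2d1 and Cacna2d2, split by neuron group. Cacna2d3 (chr14:28904943-29721864, minus strand) had 464, 596, 666 and 652 CPM in glutamatergic and 80.0, 76.5, 90.4 and 68.4 CPM in inhibitory neurons, a log2 fold change of 2.99 ± 0.10 (SE, adjusted p = 1.58e-21). Cacna2d2 had 204, 193, 201 and 204 CPM against 372, 421, 362 and 436, a log2 fold change of -0.95 ± 0.08 (SE, adjusted p = 1.69e-11), and Cacna2d1 was lower by -0.66 ± 0.08 (SE, adjusted p = 9.37e-08), at 334 ± 55.3 against 530.5 ± 68.2 CPM. None of the 3 overlapped between the groups. Cacna2d4, at 15.3 ± 6.74 against 19.4 ± 7.79 CPM, did not pass (adjusted p = 0.196). Of the beta subunits, Cacnb4 was higher at 0.64 and Cacnb2 lower at -0.20 on the log2 scale, and Cacnb3 did not pass. Of the gamma family, whose members Cacng2, Cacng3, Cacng4, Cacng7 and Cacng8 act mainly as auxiliary subunits of AMPA receptors, Cacng4 had 10.7, 4.99, 9.13 and 11.0 CPM against 45.2, 53.4, 42.1 and 43.1, a log2 fold change of -2.34 ± 0.23 (SE, adjusted p = 5.06e-10) without overlap. Cacng3 was called higher at 0.77 with overlapping libraries (18.9 ± 7.06 against 11.3 ± 5.09 CPM), but this direction rested on a mixed sub-cluster of 47 nuclei described below, and the log2 fold change was -3.28 with a finer clustering (Leiden resolution 2). Without the mixed sub-clusters Cacng3 was too low to be tested, and its call was lost in DESeq2, without the library block and without either vGluT2-Cre library. Cacng2, Cacng7 and Cacng8 did not pass.

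Both ryanodine receptors of the brain were higher in glutamatergic neurons. Ryr3 (chr2:112631355-113217096, minus strand) had 419, 327, 371 and 370.4 CPM against 76.0, 65.3, 72.4 and 31.1 in inhibitory neurons, a log2 fold change of 2.67 ± 0.13 (SE, adjusted p = 1.17e-17). Ryr2, the cardiac type and the main one in neurons, had 528, 496, 609.5 and 482 CPM against 274, 227, 221 and 241, a log2 fold change of 1.21 ± 0.08 (SE, adjusted p = 1.63e-13). The 2 groups did not overlap for either gene. Itpr1, best known from Purkinje cells, had 60.5, 90.3, 59.8 and 91.6 CPM against 74.6, 86.3, 83.1 and 79.4 and did not pass (log2 fold change -0.06 ± 0.13 (SE, adjusted p = 0.742)). Itpr2 had low values in both, at 22.2, 22.1, 18.0 and 16.7 CPM against 6.64, 11.6, 8.23 and 7.05, and was higher by 1.20 ± 0.27 (SE, adjusted p = 5.74e-04). Ryr1 stood at 1.06, 0, 0.479 and 0.628 CPM against 0, 4.19, 3.75 and 1.92, and Itpr3 at 1.98, 1.13, 2.07 and 0.569 CPM against 0, 2.25, 1.38 and 0, from 2.81 to 10.6 corrected counts per group.

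Of the plasma membrane pumps, Atp2b4 (PMCA4, chr1:133699457-133801041, minus strand) had 20.2, 28.2, 32.9 and 18.9 CPM in glutamatergic and 232, 290.3, 290.1 and 280.0 CPM in inhibitory neurons. This log2 fold change of -3.37 ± 0.12 (SE, adjusted p = 1.09e-20) was the largest decrease among the members. Atp2b1 (PMCA1), the widely expressed pump, had 185, 219, 259 and 211 CPM against 339, 394, 479 and 387, a log2 fold change of -0.83 ± 0.08 (SE, adjusted p = 1.72e-10), without overlap. Atp2b2 (PMCA2, a fast pump) had 581, 597, 435 and 656 CPM against 530.0, 572, 387 and 557, and Atp2b3 (PMCA3) 124, 126, 104 and 156 CPM against 108, 126, 82.3 and 130.5. Atp2b2 was higher by 0.20 ± 0.07 (SE, adjusted p = 0.0251) and Atp2b3 did not pass at 0.24 ± 0.10 (SE, adjusted p = 0.0632), and the libraries of both overlapped. Atp2a2 (SERCA2), the main SERCA pump of neurons, had 156, 180.1, 259 and 212 CPM against 214, 235, 266 and 260.1 and was lower by -0.22 ± 0.09 (SE, adjusted p = 0.0443). That call and the one for Atp2b2 were lost without the library block. The call for Atp2a2 was also lost in DESeq2 and without Ucn3-Cre replicate 1, Ucn3-Cre replicate 2 or vGluT2-Cre replicate 2, and that for Atp2b2 without either vGluT2-Cre library. Atp2c1 did not pass.

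How far these differences describe inhibitory neurons in general depended on cluster 17. Of 35 members tested between cluster 17 and cluster 9, an added comparison, 11 were higher and 15 lower in cluster 17, against a background of 36.2% of 9515 genes called, 17.8% higher and 18.4% lower. Cluster 17 had 1753, 1818, 1988 and 1748 CPM of Cacna2d3, 878, 1032, 1212 and 971 of Ryr2 and 482, 489.8, 479 and 512 of Scn8a. Each was above every library of cluster 9, with log2 fold changes of 4.50 ± 0.08 (SE, adjusted p = 2.78e-45), 2.10 ± 0.08 (SE, adjusted p = 2.85e-30) and 1.01 ± 0.08 (SE, adjusted p = 2.00e-16). Itpr2, at 63.9, 41.0, 37.3 and 44.9 CPM, was also higher by 2.29 ± 0.27 (SE, adjusted p = 1.43e-10), Atp2c1, a Golgi pump, at 241, 443, 409.5 and 466 CPM by 1.66 ± 0.10 (SE, adjusted p = 9.23e-22), and Cacnb3 at 41.8, 31.4, 27.1 and 35.5 CPM by 0.88 ± 0.25 (SE, adjusted p = 0.00376). The libraries of Cacnb3 overlapped, and its call was lost in DESeq2 and without vGluT2-Cre replicate 2.

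In the other direction, cluster 17 had 5.33, 1.56, 0.983 and 2.72 CPM of Atp2b4 from 5.35 corrected counts in all, and 37.1, 10.2, 29.5 and 20.9 CPM of Cacna2d1. Against cluster 9 the log2 fold changes were -6.83 ± 0.24 (SE, adjusted p = 1.33e-32) and -4.59 ± 0.14 (SE, adjusted p = 2.48e-35). Scn3b (0, 1.61, 3.06 and 5.72 CPM), Cacng4 (6.36, 6.09, 0.989 and 6.93 CPM), Scn3a (35.7, 35.1, 48.7 and 31.9 CPM) and Scn2a (165, 104, 166 and 133 CPM) were lower too, at -4.04, -3.26, -2.50 and -1.25 on the log2 scale. None of these 6 overlapped between the clusters. Glutamatergic neurons set against cluster 17 in place of cluster 9 therefore gave other signs for several members: Cacna2d3 was lower in them by -1.55 (log2 fold change), Ryr2 by -0.89 and Itpr2 by -1.11. Atp2b4 was higher by 3.48, Scn3a by 1.01, Scn2a by 0.94, Itpr1 by 1.02, Cacna1b by 0.71, Cacnb2 by 0.57 and Cacna2d1 by 3.88. Scn8a (-0.042, adjusted p = 0.757) and Scn1a (-0.10, adjusted p = 0.358) did not pass there. Ryr3, Scn4b, Cacna1c and Cacna1e kept their signs.

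**Figure D2:**
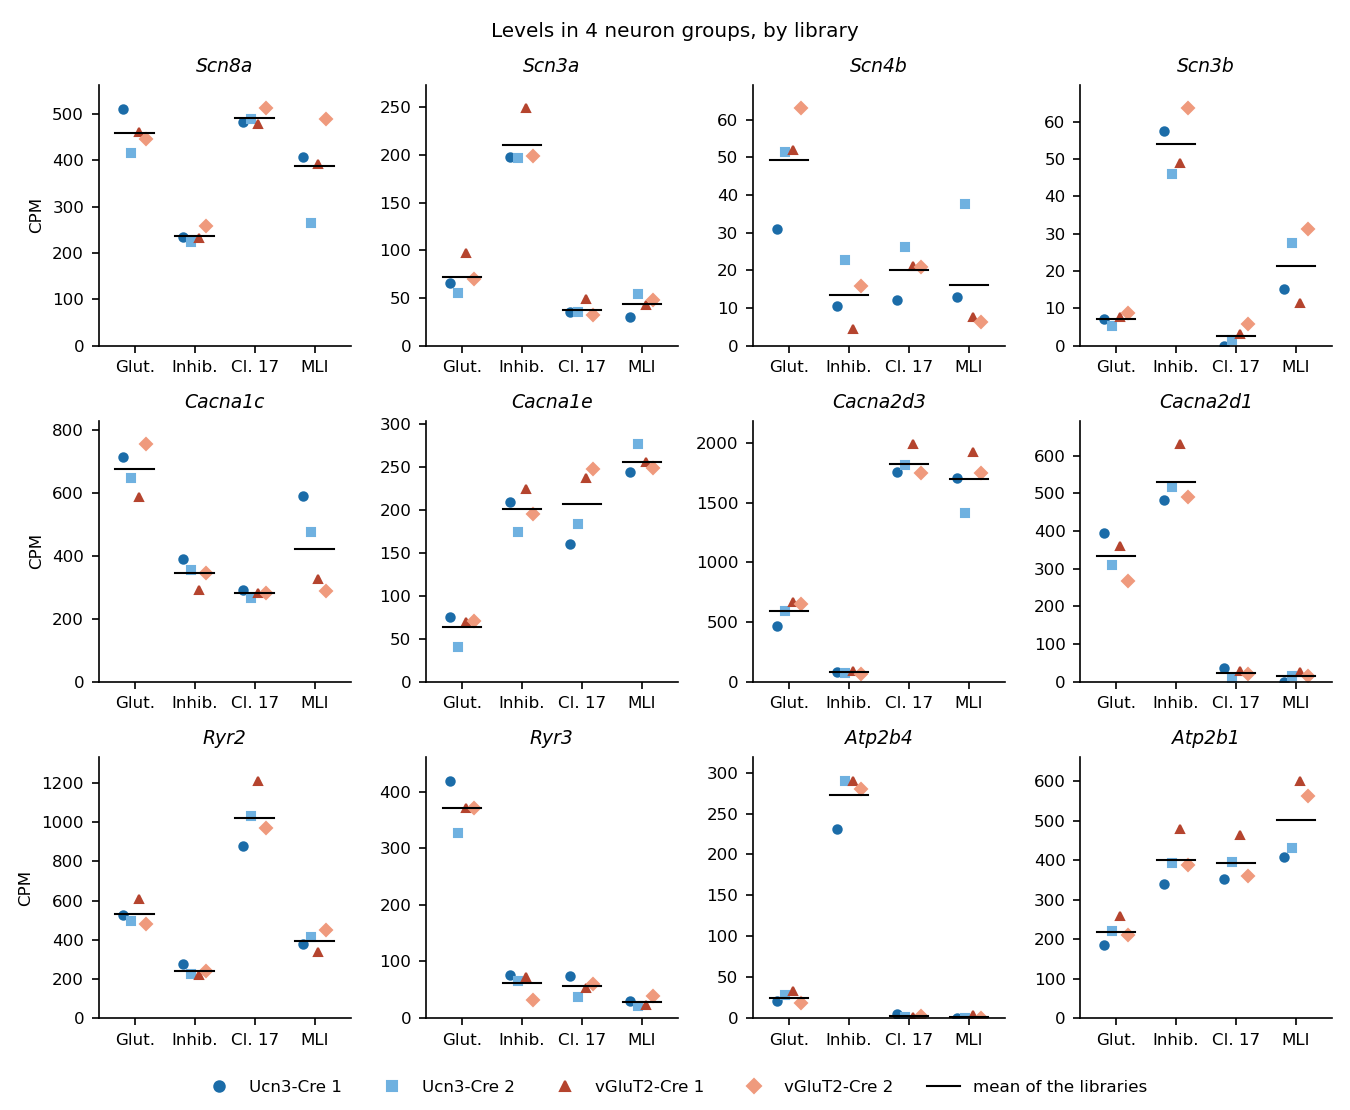
CPM of 12 genes in glutamatergic neurons, inhibitory neurons (cluster 9), cluster 17 and molecular layer interneurons (MLI), with 1 point per library and a bar at the mean of 4 libraries. Atp2b4 and Scn3b are highest in inhibitory neurons, Ryr3 in glutamatergic neurons, and Cacna2d3 in cluster 17 and molecular layer interneurons.

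**Figure D3:**
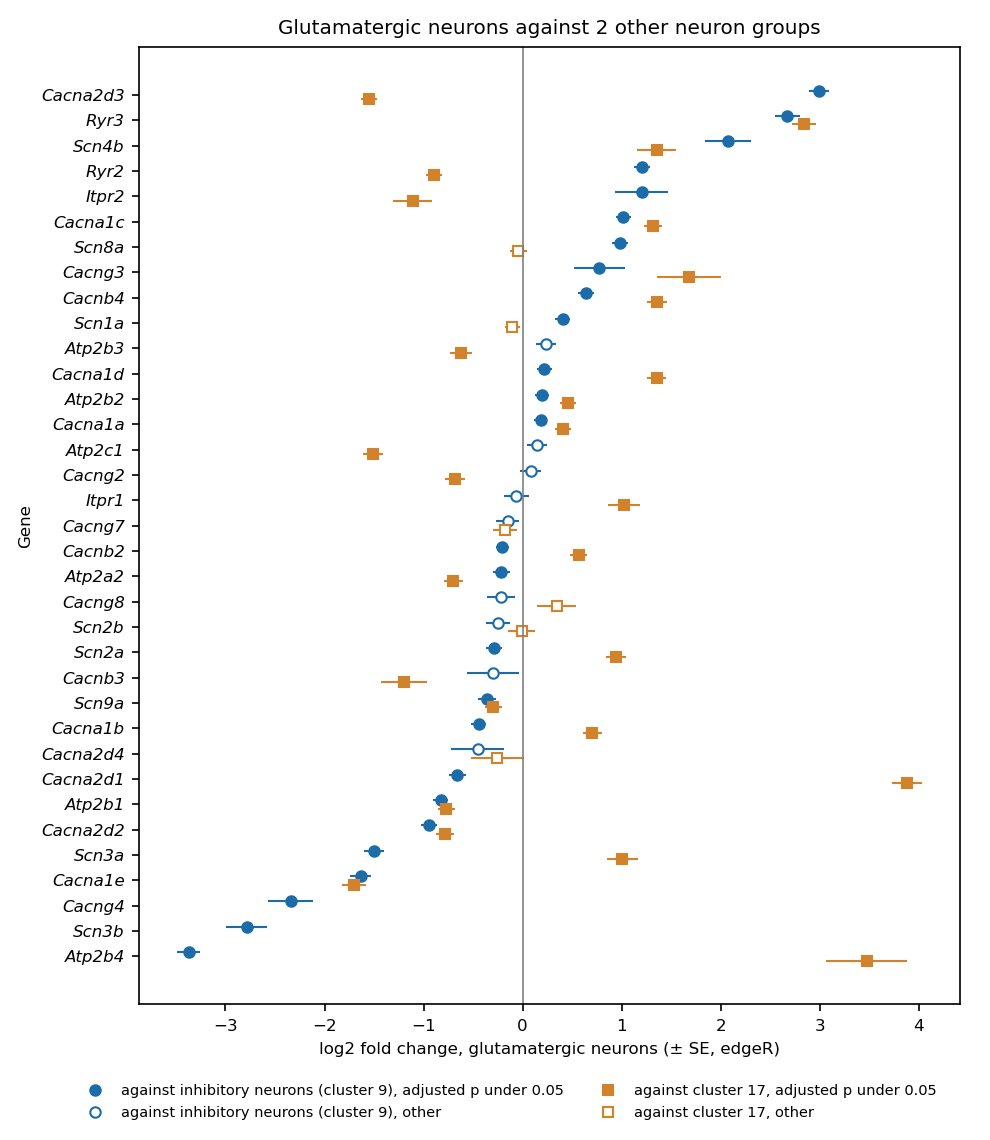
Log2 fold change (± SE, edgeR) of 35 of the tested genes in glutamatergic neurons against inhibitory neurons (circles) and, where tested, against cluster 17 (squares), filled where the adjusted p was under 0.05. Cacna2d3, Ryr2 and Itpr2 lie right of 0 for the circles and left for the squares, and Atp2b4 and Scn3a the reverse.

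Molecular layer interneurons, the basket and stellate cells of the cerebellar cortex, were compared with inhibitory neurons as a cortical reference in the dissected tissue. The class given this name scored 1.222 for interneuron and 1.106 for inhibitory markers. Its 8 interneuron markers summed to 4619 to 5980 CPM, against 3238 to 3898 in cluster 17 and 3888 to 4551 in oligodendrocyte precursors. Of 31 members tested, 8 were higher and 13 lower in these interneurons, against a background of 29.5% of 6738 genes called, 13.7% higher and 15.9% lower. The sums behind them were small, from 32 to 92 nuclei per library. Cacna1d had 1326, 1927, 1651 and 2013 CPM in interneurons, above every library of the other 10 groups, and a log2 fold change of 1.84 ± 0.12 (SE, adjusted p = 4.26e-26). Cacna2d3 had 1711, 1417, 1922 and 1746 CPM (4.35 ± 0.13 (SE, adjusted p = 5.19e-48)), and Cacng2 (stargazin, the AMPA receptor partner whose loss makes mice ataxic) 309, 505, 459.9 and 472 CPM (2.03 ± 0.15 (SE, adjusted p = 2.36e-21)). Atp2c1 at 334, 389, 424 and 509 CPM, Ryr2 at 380.1, 413, 337 and 448 CPM and Scn8a at 406, 264, 393 and 489.9 CPM were higher by 1.68, 0.65 and 0.61 on the log2 scale. Cacna1a was higher by 0.60 ± 0.11 (SE, adjusted p = 5.80e-06), at 952 to 1745 CPM.

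Lower in interneurons were Atp2b4, with 0, 0, 3.79 and 0 CPM from 0.983 corrected counts in all, so that no fold is given, and Cacna2d1, with 0, 15.5, 26.0 and 15.5 CPM and a log2 fold change of -4.92 ± 0.26 (SE, adjusted p = 2.19e-31). Scn3a (30.3, 54.3, 42.1 and 48.3 CPM), Scn9a (149.8, 172, 123 and 199.8 CPM), Cacng4 (15.1, 21.6, 11.2 and 7.95 CPM) and Scn3b (15.1, 27.4, 11.3 and 31.1 CPM) were lower by -2.29, -1.44, -1.74 and -1.37. The calls for Cacng4 and Scn3b were lost in DESeq2, and that for Scn3b without vGluT2-Cre replicate 1. Cluster 17 and these interneurons thus were both higher in Cacna2d3 and lower in Atp2b4 and Cacna2d1 than cluster 9. They differed in Cacna1d, at 216 ± 34.2 CPM in cluster 17 and 1729 ± 310.2 in interneurons, and in Scn9a, at 402 ± 69.0 and 161 ± 32.7 CPM. They also differed in Ryr2, at 1023 ± 141 CPM in cluster 17 and at the lower values given above in interneurons. These last differences were not tested.

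Within the glutamatergic neurons, 24 of 33 members tested differed across 9 of 10 sub-clusters (F test; the tenth, of 14 nuclei, was too small), against a background of 28.8% of 6268 genes. Some of these sub-clusters held markers of other cells. Sub-cluster 7 (47 nuclei) had Slc6a5, the glycine transporter, in 76.6% and Slc17a6 in 10.6% of nuclei, sub-cluster 2 (30 nuclei) had Gad2 in 60.0%, and sub-cluster 6 (98 nuclei) was led by oligodendrocyte genes such as Mog and Mbp. Without these 3, 14 of 29 members tested differed across the other 6, against a background of 25.1% of 4650 genes. Leaving out 1 library gave 10 to 14 members, with 774 to 1072 genes called over all genes. Among the members called, the 8 with the widest ranges over the 9 sub-clusters were Cacng3, Atp2b4, Itpr1, Scn3b, Scn4b, Cacna2d1, Cacna1e and Cacna2d3. The highest Cacng3 and Cacna2d3 levels were those of sub-cluster 7, at 141, 402, 225 and 305 and 1449, 866, 1378 and 1398 CPM. In the 6 sub-clusters without mixed markers, the highest mean of Cacng3 was 9.04 ± 10.0 CPM, in sub-cluster 0, with an inhibitory mean of 11.3 ± 5.09 CPM. Scn4b was lowest in sub-clusters 2 and 7, at 0, 7.46 and 0 CPM in the 3 libraries with enough sub-cluster 2 nuclei and 0, 0, 18.5 and 23.8 CPM. Both those sub-clusters carry inhibitory markers.

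Among the 6 sub-clusters with Slc17a6 in 81.1 to 89.6% of nuclei and no such mixture, sub-cluster 0, led by Kynu and Igf1, stood out by Cacna1e. It had 269.6, 196, 301 and 326 CPM, above every library of the other 5, while sub-cluster 4, led by Maf and Crhr1, had 19.5, 5.22, 9.46 and 12.1 CPM (adjusted p = 2.69e-15). Sub-cluster 0 also had 31.2, 193, 117 and 88.4 CPM of Atp2b4 and 129, 125, 189 and 174 CPM of Scn3a. Sub-cluster 4 was lowest in both, at 0, 0, 0 and 2.21 and 12.6, 26.0, 38.6 and 45.8 CPM (adjusted p = 8.50e-09 and adjusted p = 1.54e-06). For these 2 genes the libraries of sub-cluster 0 overlapped those of other sub-clusters. Over all 9 sub-clusters, the mixed sub-cluster 2 had higher means of Atp2b4 (124 ± 70.8 CPM) and Scn3a (185 ± 26.6 CPM) than sub-cluster 0, from the 3 libraries with enough of its nuclei. Scn3b showed 33.9, 57.2, 35.4 and 17.9 CPM in sub-cluster 0 and 0 in every library of sub-clusters 1, 4 and 8, and differed across the 9 sub-clusters (adjusted p = 1.08e-05).

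Sub-cluster 4 had the highest Cacna1c, with 1156, 919, 942 and 1025 CPM and no overlap with the other 5, against 352, 299.7, 276 and 387 CPM in sub-cluster 3, which is led by Lmx1a and Sema3d (adjusted p = 4.31e-10). It also had the highest Cacna2d3 of the 6, with 628, 964, 976 and 629.7 CPM, against 55.4, 179, 70.5 and 162 in sub-cluster 3 (adjusted p = 9.61e-11). Itpr1 was highest there as well, at 90.9, 167, 106 and 142 CPM against 14.8, 41.0, 16.3 and 32.4 CPM in sub-cluster 3 (adjusted p = 3.16e-05), although its libraries overlapped those of other sub-clusters. Cacna2d1 ran the opposite way. Sub-cluster 4 had 104, 104, 141 and 156 CPM, and sub-cluster 5, led by Sema3a and Sorcs2, had 976, 783, 768 and 690.2 CPM, above every library of the other 5 (adjusted p = 8.71e-16). Ryr3 was high in sub-clusters 3 and 5, at 461, 729, 725 and 675 and 751, 438, 717 and 493 CPM, which overlapped, and low in sub-cluster 1 (Prox1 and Maf), at 226, 104 and 215 CPM in its 3 libraries (adjusted p = 2.82e-09). Scn8a changed less, with sub-cluster 4 highest (542 ± 51.9 CPM) and sub-cluster 0 lowest (313 ± 56.6 CPM, adjusted p = 8.40e-04). Cacna2d2, Cacnb2, Cacnb4 and Scn2a also passed. Scn1a, Scn9a, Cacna1a, Cacna1d, Ryr2, Atp2a2 and Atp2b2 passed across 9 sub-clusters but not across these 6.

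**Figure D4:**
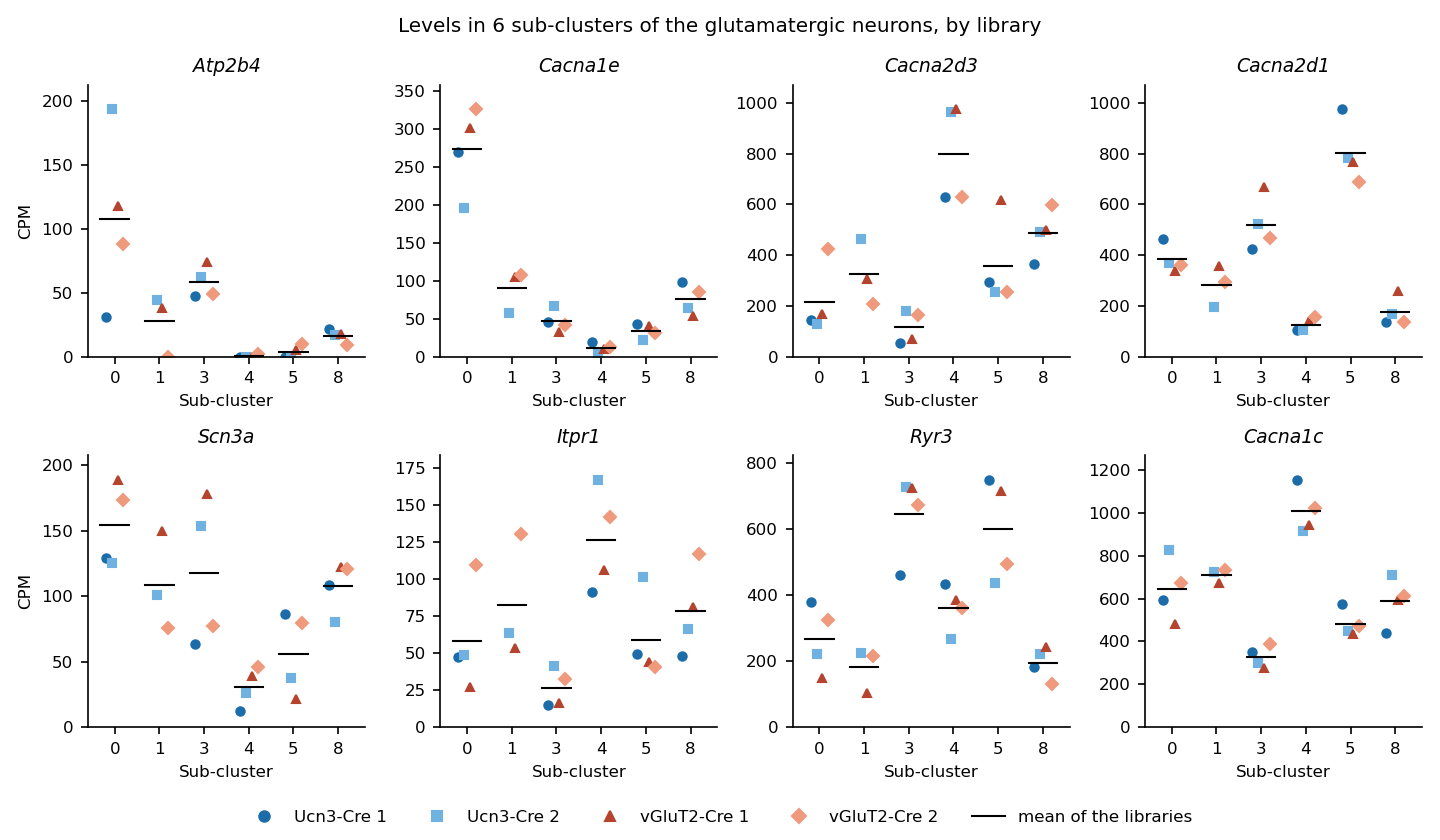
CPM of 8 genes in 6 sub-clusters of the glutamatergic neurons (0 Kynu and Igf1, 1 Prox1 and Maf, 3 Lmx1a and Sema3d, 4 Maf and Crhr1, 5 Sema3a and Sorcs2, 8 Kitl and Cpne4), with 1 point per library and a bar at the mean of 3 or 4 libraries. Cacna1e is highest in sub-cluster 0, Cacna1c in sub-cluster 4 and Cacna2d1 in sub-cluster 5, without overlap with the others.

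Within the inhibitory neurons fewer members were called across sub-clusters, as was a smaller share of all genes. Of 31 tested, 14 differed across 6 of 7 sub-clusters, against a background of 12.7% of 4620 genes. One of the 6, sub-cluster 1 (35 nuclei), carried the granule cell genes Gabra6 and Etv1, and it had the highest Cacnb4, Cacna1e, Atp2b3 and Ryr2, at 679, 349.5, 404 and 688, 534, 318, 356 and 386, 187, 233, 218 and 308 and 622, 321, 356 and 304 CPM. Without it 9 of 31 differed, against a background of 10.3% of 5196 genes. Without Ucn3-Cre replicate 2 as well, 6 of 31 differed, with 416 of 5175 genes called. Cacnb4, Cacna1e, Atp2b3, Ryr2 and Cacna1a were no longer among the 9.

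Ryr3 had the widest range. Sub-cluster 5, led by Ptpro and Vgf, had 374, 187, 312 and 198 CPM, whereas sub-clusters 0, 2, 3 and 6 had at most 30.0 CPM in any library (adjusted p = 1.74e-23). Ryr3 in inhibitory neurons was therefore carried mainly by 1 sub-cluster of 126 nuclei, whose level was nearer to that of the glutamatergic neurons. The same sub-cluster had the highest Cacna2d1, at 898, 803, 971 and 816 CPM, against 231, 323, 371 and 285 CPM in sub-cluster 6, led by Il1rapl2 and Foxp2 (adjusted p = 1.79e-14). It also had the highest Scn9a, at 424, 586, 519 and 600.3 CPM (adjusted p = 8.88e-05), and Cacna2d3, at 128, 171, 133 and 94.1 CPM (adjusted p = 0.00232), both overlapping other sub-clusters. Itpr1 was highest in sub-cluster 0, led by Cdh10, with 154, 146, 147 and 211 CPM, and lowest in sub-cluster 6, with 13.2, 40.8, 30.7 and 31.9 CPM (adjusted p = 2.81e-10). Atp2b4 ranged only from 189.8 ± 46.3 CPM in sub-cluster 0 to 349 ± 41.5 CPM in sub-cluster 3, led by Fras1 (adjusted p = 0.0019), so that every sub-cluster mean was above those of the glutamatergic sub-clusters. Atp2b2 was highest in sub-cluster 2, led by Kcnc2, at 778, 729, 480.1 and 556 CPM, and lowest in sub-cluster 5, at 329, 496, 346 and 339.5 CPM (adjusted p = 0.00447). Cacnb2 was highest in sub-cluster 6, at 1013, 615, 713 and 719 CPM, and lowest in sub-cluster 5, at 489, 418, 490.4 and 616 CPM (adjusted p = 5.15e-04).

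The glial comparisons asked how the members differ along the oligodendrocyte line and in astrocytes. Oligodendrocyte precursors, dividing glia that receive synapses from neurons, had higher levels of most members than oligodendrocytes. Of 33 members tested, 27 were higher and 3 lower in precursors, against a background of 50.9% of 10280 genes called, 27.0% higher and 23.8% lower. The median log2 fold change of the members was 2.83, against -0.03 for all genes. Cacng4 (chr11:107732357-107794557, minus strand), an AMPA receptor partner, had 1445, 1152, 766 and 1346 CPM in precursors and 0.92, 1.05, 0.394 and 2.4 CPM in oligodendrocytes, with a log2 fold change of 9.77 ± 0.18 (SE, adjusted p = 1.80e-17). Every precursor library was above every library of the other 10 groups.

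The pores followed. Cacna1e had 88.6, 80.6, 131 and 102 CPM in precursors against 0.786, 0.484, 0 and 0 in oligodendrocytes, where 3.54 corrected counts were summed in all. Scn3a had 126, 98.9, 155 and 151 CPM against 0.896, 1.52, 1.75 and 1.83, and Cacna1d 262, 313, 317 and 339.8 CPM against 8.24, 0.328, 2.7 and 6.54. Cacna1b had 16.6, 39.0, 35.4 and 45.6 CPM against 0.24, 0.602, 1.59 and 0.711, and the AMPA receptor partner Cacng8 74.6, 50.8, 31.1 and 68.4 CPM against 0.235, 1.26, 0.174 and 1.02. Their log2 fold changes were 8.18 ± 0.38 (SE, adjusted p = 1.23e-12), 6.30 ± 0.21 (SE, adjusted p = 1.66e-14), 6.21 ± 0.28 (SE, adjusted p = 7.28e-13), 5.49 ± 0.42 (SE, adjusted p = 2.27e-09) and 6.04 ± 0.39 (SE, adjusted p = 1.48e-10), and none overlapped between the classes. Cacna1a (518 ± 76.2 against 26.3 ± 9.74 CPM), Cacna1c (409 ± 52.5 against 24.1 ± 6.58 CPM) and Itpr2 (466 ± 37.0 against 25.7 ± 7.28 CPM) were higher by 4.25, 4.08 and 4.14 on the log2 scale. Ryr2 and Ryr3 were higher by 5.27 and 4.88, Scn1a by 2.18, Scn8a by 1.71 and the pumps Atp2b1, Atp2b2, Atp2b3 and Atp2b4 by 0.88, 1.88, 2.83 and 4.82. Itpr1 was higher by 0.85 and Atp2a2 by 0.28 ± 0.10 (SE, adjusted p = 0.0245), the latter with overlapping libraries. The call for Atp2a2 was lost in DESeq2, without the library block and without Ucn3-Cre replicate 1, Ucn3-Cre replicate 2 or vGluT2-Cre replicate 1. Scn2a was higher as well, at 109 ± 23.4 against 10.4 ± 3.53 CPM. Scn9a stayed at 0 to 7.21 CPM in precursors and was not tested.

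The 3 members lower in precursors were Cacna2d4, Cacnb4 and Atp2c1. Cacna2d4 (chr6:119236526-119352407, plus strand) had 7.2, 0, 6.83 and 8.91 CPM in precursors and 46.4, 45.2, 47.4 and 52.0 CPM in oligodendrocytes, its highest level among the 11 groups (-3.04 ± 0.33 (SE, adjusted p = 2.72e-07)). Cacnb4, a beta subunit whose mutation causes ataxia in mice, had 239, 123, 244 and 151 CPM against 271, 343, 415 and 324 (-0.95 ± 0.14 (SE, adjusted p = 1.60e-05)), and Atp2c1 149, 168, 137 and 189 CPM against 259, 293, 317 and 324 (-0.94 ± 0.11 (SE, adjusted p = 8.07e-07)). Clusters 4 and 5 differed from the named oligodendrocytes here, with 13.0, 10.5, 14.4 and 8.87 CPM of Cacna2d4 and 140.0, 130.1, 71.9 and 86.9 CPM of Cacna1a, where oligodendrocytes had 23.3, 27.5, 15.5 and 38.8. That difference was not tested. Adding them to the oligodendrocytes gave 30 of 33 members called, with 5502 of 10931 genes called in that fit. Median depth was 1960 to 4050 counts per nucleus in precursors and 1338 to 2566 in oligodendrocytes. Summed neuron markers were also higher in precursors: the 8 interneuron markers at 3888 to 4551 against 1137 to 1475 CPM and the 7 inhibitory markers at 401 to 530 against 206 to 261 CPM, with Sox14 at 0 in every precursor library. The glutamatergic markers were at 69.5 to 151 against 63.6 to 180 CPM. The part of these markers in the results was not tested.

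Astrocytes differed from oligodendrocytes in 24 of 30 members tested, 16 higher and 8 lower, against a background of 67.8% of 11789 genes called, 34.4% higher and 33.4% lower. Higher in astrocytes were Cacna1e (59.6, 34.4, 54.3 and 55.9 CPM), Cacng4 (124, 96.9, 73.6 and 82.5 CPM), Cacng8 (66.2, 50.6, 44.6 and 51.4 CPM), Ryr2 (127, 107, 120.3 and 106 CPM), Cacnb2 (248, 263, 316 and 303 CPM) and Cacna1d (116, 109, 122 and 114 CPM). Every library of these 6 was above every oligodendrocyte library, and the log2 fold changes were 7.29, 6.11, 5.99, 5.76, 4.82 and 4.77. The oligodendrocyte levels of Cacna1e, Cacng4 and Cacng8, given above, were near 0, so the sizes of their fold changes are uncertain. Of the inositol trisphosphate receptors, through which astrocytes raise their calcium after receptor activation, Itpr1 and Itpr2 were higher in astrocytes. Itpr2, the isoform best known from astrocytes, had 273, 273, 232 and 266 CPM against 25.4, 34.8, 16.9 and 25.8 in oligodendrocytes and passed without overlap, and Itpr1 336, 313, 288 and 337 CPM (2.82 ± 0.09 (SE, adjusted p = 5.29e-11)). Atp2a2 had 370.3, 462, 506 and 445 CPM, its highest mean among the groups (1.13 ± 0.08 (SE, adjusted p = 4.28e-08)), and Atp2b2 394, 373, 278 and 390.5 CPM (2.86 ± 0.19 (SE, adjusted p = 4.36e-08)).

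Lower in astrocytes were Cacna2d4 (7.58, 8.43, 9.28 and 6.91 CPM), Cacnb4 (170.0, 129, 106 and 117 CPM), Cacna2d3 (59.2, 60.7, 60.0 and 64.7 CPM) and Cacng7 (41.8, 38.9, 36.4 and 32.0 CPM), by -2.63, -1.42, -1.01 and -0.75 on the log2 scale and without overlap. Scn1a (14.3, 42.7, 15.1 and 27.7 CPM) and Scn4b (7.13, 17.9, 7.46 and 14.9 CPM) were lower by -0.65 and -0.62 with overlapping libraries, and both calls were lost without the library block. Cacna1c did not pass, at 25.5 ± 11.5 against 24.1 ± 6.58 CPM. Inhibitory neuron markers summed to 648 to 770 CPM in astrocytes against 206 to 261 CPM in oligodendrocytes, with Sox14 at 0 in every library, and their part in these results was not tested.

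Microglia, the resident phagocytes, were not part of a planned test and are given as levels. They had 442, 416, 842 and 721 CPM of Cacnb2, 289.8, 312, 320.2 and 340.0 of Cacna1d, 467, 478, 420.4 and 469.8 of Itpr2 and 310.5, 198, 196 and 235 of Cacna1a. Atp2c1 had 465, 444, 394 and 486 CPM there, its highest mean among the 11 groups, overlapping that of molecular layer interneurons. Cacna1c, Cacna1e, Ryr2 and Ryr3 had at most 24.4 CPM in any microglial library. Summed markers in microglia were 77.2 to 160 CPM for glutamatergic neurons and 55.8 to 75.8 CPM for inhibitory neurons, against 811 to 947 and 1021 to 1337 CPM in those neurons themselves.

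In vessels, mural cells, which wrap the endothelium as pericytes or smooth muscle, were compared with endothelial cells. The mural class was led by Vtn, Slc6a20a and Abcc9, genes known from pericytes, and Acta2, the actin of smooth muscle, was at 0 to 81.5 CPM in it and at 66.9 to 1232 CPM in the endothelial class. Of 13 members tested, 7 were higher and 1 lower in mural cells, against a background of 42.5% of 3409 genes called, 18.1% higher and 24.5% lower. Mural sums held only 23 to 65 nuclei per library. Cacna1c (chr6:118587240-119196418, minus strand), the main L-type pore of vessels, had 2452, 1930.0, 1778 and 1758 CPM in mural and 381, 263, 218 and 343 CPM in endothelial cells, a log2 fold change of 2.82 ± 0.18 (SE, adjusted p = 2.52e-08). Atp2a3 (SERCA3, chr11:72961169-72993044, plus strand) had 577, 255, 353 and 386 CPM against 87.9, 64.0, 58.2 and 48.9 (2.68 ± 0.24 (SE, adjusted p = 3.67e-07)), and stayed at or under 2.22 CPM in each library of the neuron and glial groups. Cacnb2 had 759, 739.5, 731 and 702 CPM against 174, 104, 135 and 185 (2.44 ± 0.21 (SE, adjusted p = 3.05e-07)), and Cacna2d1 144, 253, 332 and 253 CPM against 65.2, 16.5, 102 and 60.0 (2.39 ± 0.36 (SE, adjusted p = 7.29e-05)).

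Itpr1 had 1103, 749, 1027 and 1059 CPM in mural against 461, 295, 355 and 338 CPM in endothelial cells (1.57 ± 0.17 (SE, adjusted p = 3.96e-06)), and Itpr2 633, 433, 501 and 306 CPM against 190.2, 274, 188 and 237 (1.08 ± 0.24 (SE, adjusted p = 0.00159)). Atp2c1 was the seventh, at 1.07 ± 0.23 (SE, adjusted p = 0.00134). None of the 7 overlapped between the classes. Itpr3 (chr17:27057304-27122223, plus strand) had 55.0, 68.3, 98.3 and 65.6 CPM in endothelial cells and 0 in every mural library, where the sums were too small for the test. Cacna1a was lower in mural cells, at 41.1, 36.2, 23.9 and 32.1 against 199, 187, 169.8 and 197 CPM (-2.35 ± 0.34 (SE, adjusted p = 5.18e-05)). With a finer clustering (Leiden resolution 2), which left a cluster of 279 nuclei led by Acta2, Myl9 and Ly6a unnamed, Cacna1a was not tested and 8 members were called, all higher. That fit tested 10 members and called 1309 of 2388 genes. Cacna1c, Cacnb2 and Cacna2d1 were then higher by 3.47, 3.55 and 3.72 on the log2 scale. The 8 mural markers summed to 17440 to 21300 CPM in mural and 4274 to 6797 CPM in endothelial cells, and the 9 astrocyte markers to 5206 to 7367 CPM and 1575 to 2173 CPM. Their part in the results was not tested. Fibroblasts reached 20 nuclei only in the vGluT2-Cre libraries. They had a mean of 979.7 ± 189 CPM (SD, n = 2) of Itpr1, and were not tested.

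**Figure D5:**
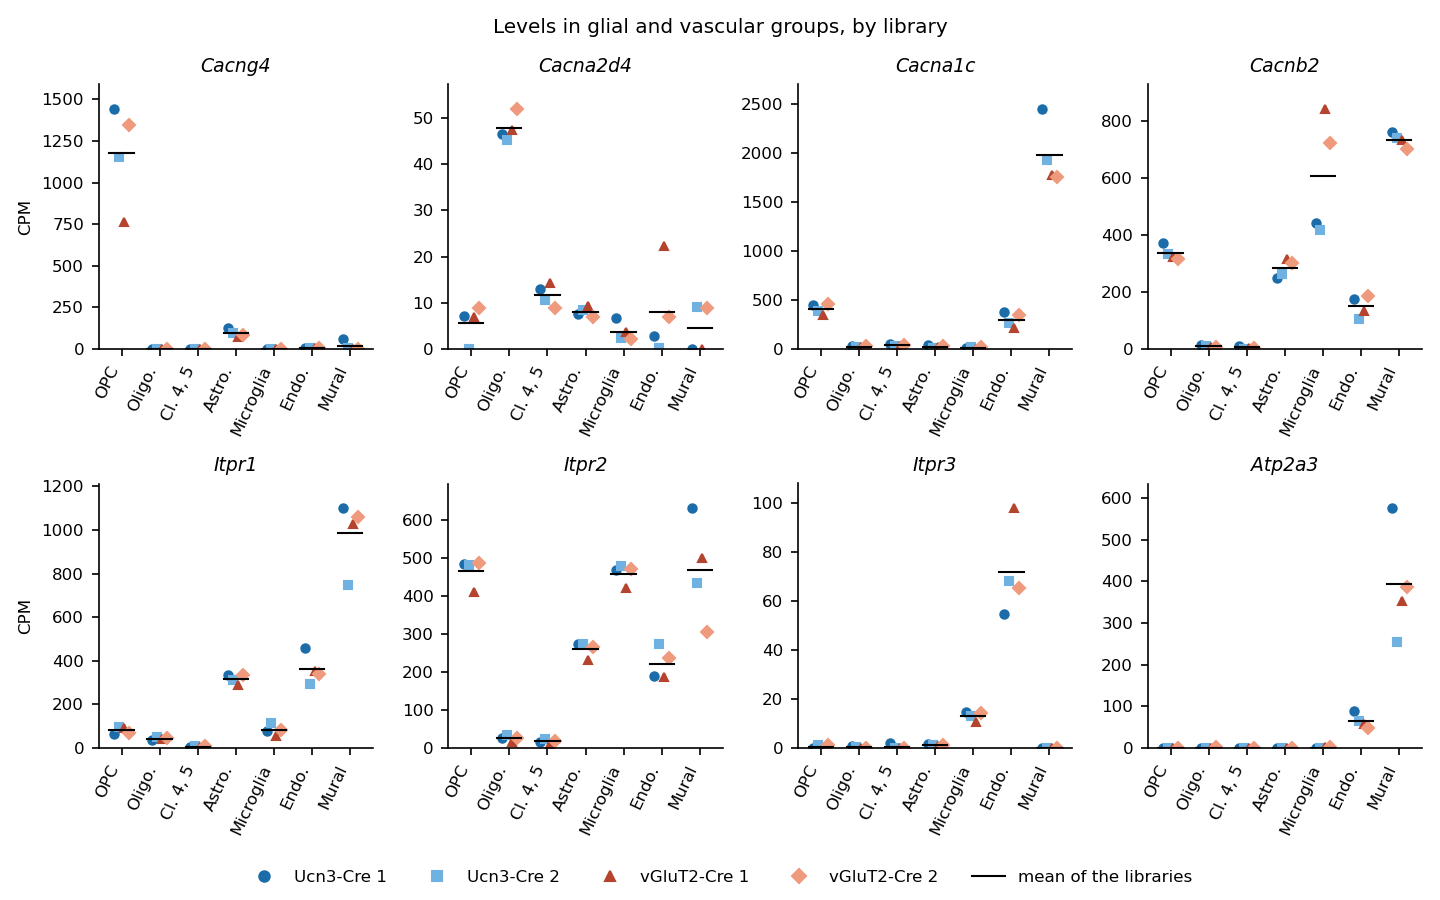
CPM of 8 genes in 7 glial and vascular groups, with 1 point per library and a bar at the mean of 4 libraries. Cacng4 is highest in oligodendrocyte precursors (OPC), Cacna2d4 in oligodendrocytes, Itpr3 in endothelial cells, and Cacna1c, Itpr1 and Atp2a3 in mural cells.

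Genes that work with these channels and stores were listed by pathway. Of 12 partners of sodium channels and the axon initial segment, 7 were higher and 3 lower in glutamatergic than in inhibitory neurons. The background for each list in this comparison was 37.4% of 10401 genes called, 18.8% higher and 18.6% lower. Among the fibroblast growth factor homologous factors, which bind the tails of sodium channels, Fgf13 had 156 ± 38.7 against 27.9 ± 1.27 CPM and was higher by 2.51 ± 0.14 (SE, adjusted p = 8.82e-16) on the log2 scale, and Fgf12 (1962 ± 43.3 against 902 ± 68.5 CPM, 1.17 ± 0.07 (SE, adjusted p = 6.38e-15)) was higher too. Fgf14 (2996 ± 479.8 against 6072 ± 526 CPM, -0.98 ± 0.07 (SE, adjusted p = 2.42e-13)) and Ank3, the anchor of channels at the initial segment (1170.0 ± 102 against 2301 ± 74.4 CPM, -0.94 ± 0.07 (SE, adjusted p = 2.75e-13)), were lower. The leak channel gene Nalcn was lower by -1.14, while its partners Unc79 and Unc80 were higher by 0.63 and 0.71. The list's median was 0.26, against -0.01 for all genes tested.

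Of the calcium channel partners, 7 of 11 listed were tested, with 3 higher and 2 lower. Cabp1, a calcium sensor that binds channels (181 ± 34.9 against 63.6 ± 14.1 CPM, 1.60 ± 0.11 (SE, adjusted p = 1.17e-13)), and Stac2, which slows L-type inactivation (81.5 ± 12.4 against 22.9 ± 4.07 CPM, 1.88 ± 0.15 (SE, adjusted p = 1.11e-11)), were higher. Of the store partners, 17 of 27 were tested, with 1 higher (Asph) and 5 lower, and a median of -0.27. Plcb4, a phospholipase that makes inositol trisphosphate, had 262 ± 24.4 CPM against 1690.0 ± 102 (-2.66 ± 0.08 (SE, adjusted p = 5.09e-23)), and Plcb1 was lower by -1.09. Of other extrusion and uptake genes, 11 of 13 were tested, with 1 higher and 4 lower. The sodium-calcium-potassium exchanger Slc24a4 had 6.12 ± 2.27 CPM against 292 ± 31.5 (-5.53 ± 0.16 (SE, adjusted p = 6.05e-23)), and Slc24a2, Slc8a1 and Slc8a2 were lower by -1.59, -0.76 and -1.80. These exchanger genes, Atp2b4 and Atp2b1 were thus lower in glutamatergic than in inhibitory neurons. Atp2b2 was called higher by 0.20, and 6 genes of the list were not called. In cluster 17 against inhibitory neurons, 1 of 11 genes tested from this list was higher and 7 were lower (median -0.67). Lower calls on this list were therefore not limited to glutamatergic neurons, and Atp2b4 was higher in them than in cluster 17. For glutamatergic against inhibitory neurons, 15 of 20 calcium buffers and sensors were tested, with 6 higher and 4 lower.

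In precursors against oligodendrocytes, 9 of 12 sodium channel partners were higher and 3 (Ank2, Ank3 and Nfasc) lower. The background for this and the next lists was 50.9% of 10280 genes called, 27.0% higher and 23.8% lower. All 5 calcium channel partners tested were higher, Rims1 by 7.23 among them. Among store partners, 10 of 18 tested were higher and 6 lower. Orai1, the pore of store-operated entry, was higher by 2.86 ± 0.15 (SE, adjusted p = 1.07e-11), while its sensor Stim1 was lower by -0.94 ± 0.14 (SE, adjusted p = 1.47e-05) and Jph1, which tethers stores to the surface membrane, by -5.56 ± 0.25 (SE, adjusted p = 7.76e-13). In mural against endothelial cells, Casq2, the calcium-binding protein of muscle stores, was higher at 274 ± 65.3 against 67.7 ± 16.5 CPM (2.18 ± 0.24 (SE, adjusted p = 3.50e-06)), and Stim1 by 1.42 ± 0.25 (SE, adjusted p = 2.84e-04).

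Lines and sexes were compared over all nuclei, and lines within glutamatergic and inhibitory neurons. In none of these 4 comparisons was a member called, by edgeR or by DESeq2, and edgeR called 0 of 13793 genes (0.0%) in each comparison of all nuclei, 0 of 11083 in glutamatergic and 0 of 10045 in inhibitory neurons. At an unadjusted p under 0.05 it marked 479 genes and 0 members by line over all nuclei, 298 genes and 1 member in glutamatergic neurons, 264 genes and 0 members in inhibitory neurons, and 445 genes and 1 member by sex. DESeq2 called 225, 4, 4 and 186 genes. With 2 libraries against 2 the edgeR test had little power: Xist, the X-inactivation RNA of female cells, at 3470 and 3271 CPM in the female and 0 in both male libraries, had an adjusted p of 0.216. A null result here therefore says little about the members.

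By line, the smallest unadjusted p in glutamatergic neurons was that of Scn9a, at 388 ± 0.424 CPM in the Ucn3-Cre and 255 ± 53.2 CPM in the vGluT2-Cre libraries (SD, n = 2 each, adjusted p = 1). Atp2a2 followed, at 168 ± 17.1 against 235 ± 33.7 CPM. In inhibitory neurons Cacna1d had 414 ± 0.849 against 507 ± 47.7 CPM and Cacna2d4 14.2 ± 3.85 against 24.7 ± 7.50 CPM. Over all nuclei, Cacna1a had 295 ± 8.49 against 257 ± 2.83 CPM and Scn3a 22.6 ± 1.14 against 34.3 ± 13.2 CPM. By sex over all nuclei, Scn1a had 128 ± 7.85 CPM in females and 181 ± 22.3 in males, and Cacna2d3 187 ± 14.4 against 265 ± 45.0 CPM. In sums over all nuclei, fewer nuclei of a type and less RNA per nucleus cannot be told apart, and line and age cannot be told apart in any of these comparisons.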

How the data were processed

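Single-nucleus RNA sequencing was deposited as corrected counts per gene and nucleus for 4 libraries, and as a table of glutamatergic nuclei. Cell Ranger 3.1.0, Seurat 3.2 and the mm10 genome are named in the submitters' processing notes. The deposited values are expected counts: they are not whole, and 97.2 to 98.8% fall short of a whole number by at most 0.5. Background RNA may have been subtracted, a step not given in the sources used here. Every column used belonged to a library (0 without one). Of 15632 genes, 4186 are listed at 0 throughout at least 1 library, 2482 of them with 50 or more counts in another. No member is among them, because members had to have a count in each library. Cacnb1 matched by symbol and was left out by that rule. It had 93.5, 0, 195.3 and 177.5 counts in the 4 libraries. Over the 11446 other genes the share called was 38.8% between glutamatergic and inhibitory neurons, 52.9% for precursors and 71.2% for astrocytes.

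No nucleus was removed by the filters on genes (200) or mitochondrial counts (5%). Scrublet's own threshold marked 58 of 21494 nuclei (0.27%), so the highest scores were removed instead at 0.8% per 1000 nuclei (947 nuclei). Nuclei were clustered with scanpy 1.11.5 (Leiden, resolution 1, and 0.5 for sub-clusters) without the members and listed pathway genes, and named from marker lists. Of 471 kept nuclei in the deposited glutamatergic table, 470 were in the clustered class. Corrected counts were summed per library and group (at least 20 nuclei, 5 in sub-clusters), rounded, and tested with edgeR 4.0.16 (quasi-likelihood, TMM, filterByExpr, Benjamini-Hochberg over all genes tested, threshold 0.05), with the library as a block between classes. Adjusted p-values in the text are from this test unless DESeq2 1.42.0 is named. CPM values carry no TMM factor.

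The members, lists and tests were chosen with earlier results of these data known. Values in every library were to be given for up to 6 called members per direction with the largest fold changes and one direction in every library, for up to 8 called members with the largest range across sub-clusters, and for the pores, release channels, SERCA2 and plasma membrane pumps, which are given by library between glutamatergic and inhibitory neurons and otherwise mostly by mean or fold. In line and sex comparisons, the 2 smallest unadjusted p were named. The labels do not say that libraries came from separate animals, so p-values measure the spread between libraries only. Replicate numbers were not used to pair libraries. The correlation of deviations was 0.003 over all nuclei, 0.116 in glutamatergic and 0.031 in inhibitory neurons. With only 2 replicate numbers it cannot decide whether libraries were paired. The column names of both replicate 2 libraries hold the same number, whose meaning is not stated, and those of the replicate 1 libraries hold different ones. Positions are from GENCODE on GRCm38. Values of 1 member are not reported here, although the counts of members include it. Tests were checked on simulated counts.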

Additional observations from a re-analysis of the deposited data

Results flagged for a closer look

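Among 50 sets of 4 libraries examined, 1 had a library far from the others by Dixon's criterion, where chance alone gives about 1 in 20. It was Scn3a in inhibitory neurons, where vGluT2-Cre replicate 1 had 249 CPM and the other 3 had 197, 198 and 199 CPM. The lower Scn3a of glutamatergic neurons was called with and without that library.

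Cacng2 differed in sign between the lines. Its difference between glutamatergic and inhibitory neurons, in log2 (CPM + 1), was above 0 in both Ucn3-Cre libraries (mean 0.21) and below 0 in both vGluT2-Cre libraries (mean -0.09). The difference between the lines was not tested, and the gene was not called between the classes.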

How the results depend on the processing

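Over 1504 alternative values of the members given by library, 1415 kept direction and call, 65 lost the call, 8 gained one and 16 changed sign. All 16 of these sign changes came from the place of cluster 17 among inhibitory neurons, an alternative chosen after seeing the data. With cluster 17 in place of cluster 9, the log2 fold change in glutamatergic neurons was 3.48 for Atp2b4, 0.71 for Cacna1b, 1.01 for Scn3a, 0.94 for Scn2a and 1.02 for Itpr1. It was -0.10 for Scn1a, -0.62 for Atp2b3, -1.11 for Itpr2, -1.55 for Cacna2d3, -0.89 for Ryr2 and -0.042 for Scn8a. Of called members not given by library, Cacna2d1 (3.88) and Cacnb2 (0.57) also changed sign there, and Cacng3 did at Leiden resolution 2 (-3.28). With cluster 17 added to cluster 9, it was 0.13 for Scn2a, 0.33 for Itpr1, -0.18 for Itpr2, -0.33 for Cacna2d3 and -0.013 for Ryr2.

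Counts of called members moved beyond 1.5 times only across sub-clusters: 14 in place of 24 for the 6 glutamatergic sub-clusters without mixed markers, 9 in place of 14 for the 5 inhibitory ones, and 9 without Ucn3-Cre replicate 2. Leaving out each library gave 21 to 24 members between glutamatergic and inhibitory neurons, 16 to 21 for molecular layer interneurons, 25 to 26 for cluster 17, 28 to 30 for precursors, 23 to 24 for astrocytes, 7 to 11 for mural cells, 19 to 21 across glutamatergic and 9 to 13 across inhibitory sub-clusters, and 0 for line and sex. Without the mixed sub-clusters these were 10 to 14 and 6 to 10. The number of all genes called moved too in these fits, as did the number tested. It was 3033 to 3845 between glutamatergic and inhibitory neurons, 1596 to 2108 for molecular layer interneurons and 2707 to 3519 for cluster 17. It was 4633 to 5225 for precursors, 7039 to 7732 for astrocytes and 1090 to 1626 for mural cells. Across glutamatergic and inhibitory sub-clusters it was 1074 to 1616 and 444 to 531.

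Without the library as a replicate block, 19 of 36 members tested were called between glutamatergic and inhibitory neurons. Over all genes that fit called 2158 of 10401, against 3887 with the block. Molecular layer interneurons gave 19 of 31 members and 1664 of 6738 genes, and cluster 17 gave 22 of 35 and 2211 of 9515. Precursors gave 29 of 33 members and 4430 of 10280 genes, astrocytes 21 of 30 and 6053 of 11789. Mural cells gave 8 of 13 members and 1473 of 3409 genes. Across glutamatergic sub-clusters there were 19 of 33 members and 1462 of 6268 genes, and across inhibitory sub-clusters 10 of 31 and 381 of 4620. With the replicate block, line and sex gave 0. Rounding each value up moved the median of precursors against oligodendrocytes from 2.83 to 2.11. Mural cells and molecular layer interneurons had the fewest nuclei, which limits what could be tested there.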
